A study of Sus scrofa with 26 samples.

Results

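The unfolded protein response genes described here are 10 genes, XBP1, ATF4, ATF6, DDIT3, HERPUD1, HYOU1, PDIA4, CALR, ERN1 and EIF2AK3, measured in the subcutaneous adipose tissue (SCAT, back fat) of pigs. Their probes were found by name, from the gene symbol, the accessions or the description that the array files give for each spot, without use of any measured value. In all, 35 of the 60306 spots that are not controls belonged to these genes, and 33 of the 35 were bright enough to be tested. The remaining spots were both for HYOU1. RNA was taken from 26 pigs, with 1 pig per array. They were castrated males of the Creole breed, of the Large White breed (LW) or of their cross (F1). The 11 pigs at thermoneutrality (TN, 24 °C per the labels) comprised 3 Creole, 4 F1 and 4 LW animals. The 15 pigs in heat stress (HS) comprised 5 animals of each breed, and the labels give their temperature as 30 °C, with a slightly higher value in the text of the series. The TN pigs were slaughtered before the room was warmed, so that temperature, day of slaughter and age cannot be told apart. The methods describe blocks of littermates and shared pens, which the labels do not give, so that the p-values measure the spread between pigs that may be related.

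Secreted and membrane proteins fold in the endoplasmic reticulum, and the unfolded protein response adjusts the folding capacity of this compartment to the load. Misfolded proteins are sensed by 3 membrane proteins, IRE1 (encoded by ERN1), PERK (encoded by EIF2AK3) and ATF6. IRE1 splices the mRNA of XBP1, PERK slows translation through eIF2 and favours the translation of ATF4, and ATF6 is cut to release a transcription factor. These factors induce chaperones, folding enzymes and degradation factors, and under lasting stress DDIT3. In adipose tissue, the response is known for its activity in cells that secrete hormones and matrix proteins.

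Levels are log2 intensities after quantile normalization, and a difference of 1 on this scale is a doubling. Each gene is represented by its brightest tested probe unless stated otherwise, and levels of different probes are not compared with each other. A difference was called when its limma p-value was below 0.05 after Benjamini-Hochberg adjustment across the 44703 probes tested. From 68.5% to 76.6% of the spots of an array were well above background and 0 were saturated. The arrays lay on 5 slides, each with pigs of both temperatures. Adipocyte genes were strongly expressed, with mean levels of 18.36 for FABP4, 17.42 for ADIPOQ and 15.80 for PLIN1.

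The probes are 60 bases long, and the first 30 bases of 9 of them are shown, as printed in the array files. They are given to tell apart probes of the same gene that gave different values. For XBP1, 6 probes were assigned by the files to the same mRNA, and 5 of them are listed from its 5′ to its 3′ side.
XBP1 probe A_72_P592109: gccattaatgaagtgattcgttttgaccac
XBP1 probe A_72_P544772: ttagagattccctctgagacagagagccaa
XBP1 probe A_72_P488529: actgcctaaagccatcttcctgcctactgg
XBP1 probe A_72_P536555: tactggatgcttatagtgactgtagttatg
XBP1 probe A_72_P094611: cagctagtgtaacttttggaaggtgctttc
For CALR, the brightest probe and the other 2 probes gave different results, and for PDIA4 the result rests on a single probe.
CALR probe A_72_P128321, the brightest: ggattctagctcggctcatactgagaatgt
CALR probe A_72_P402718: agacaaccctgagtactcccctgatagcaa
CALR probe O12127: cgctcctgccatagagccggccgcgccaaa
PDIA4 probe A_72_P015561: taaacagttgagtaaattgtgcctttctcc
The files placed no member probe on a chromosome and named no genome build for them, so no genome coordinates are given. The probe for PDIA4 was named only through its description, which refers to a partial match to the bovine protein. The XBP1 probe A_72_P227182 was also named only through its description. Some sequences were spotted under more than one probe name. A_72_P440751 and O11871, both for DDIT3, share all 60 bases, and so do the 2 probes of HYOU1 that were too dim to test.

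The comparison of HS with TN, with breed as a fixed effect, asked whether the mRNA levels of the response changed with heat. XBP1 and CALR were higher in HS and PDIA4 was lower, and the other 7 genes did not pass the test. Calls were made for 3 of 10 genes, against 12.2% of all tested probes. In the upward direction the count was 2 of 10 genes against 5.17% of all probes, and in the downward direction 1 of 10 against 7.02%. At an unadjusted p below 0.05 there were 4 of 10, ATF4 being the fourth, against 26.9% of all probes. Over all 33 tested probes of these genes, 6 were called higher and 1 lower. The median difference of the 10 genes was 0.07, compared with 0.0024 over all tested probes. Each gene counts by its brightest tested probe, whereas the shares of all probes cover bright and dim probes alike. As the genes were chosen with earlier results of these data known, these counts describe the list and do not set it apart from others.

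**Figure D1:**
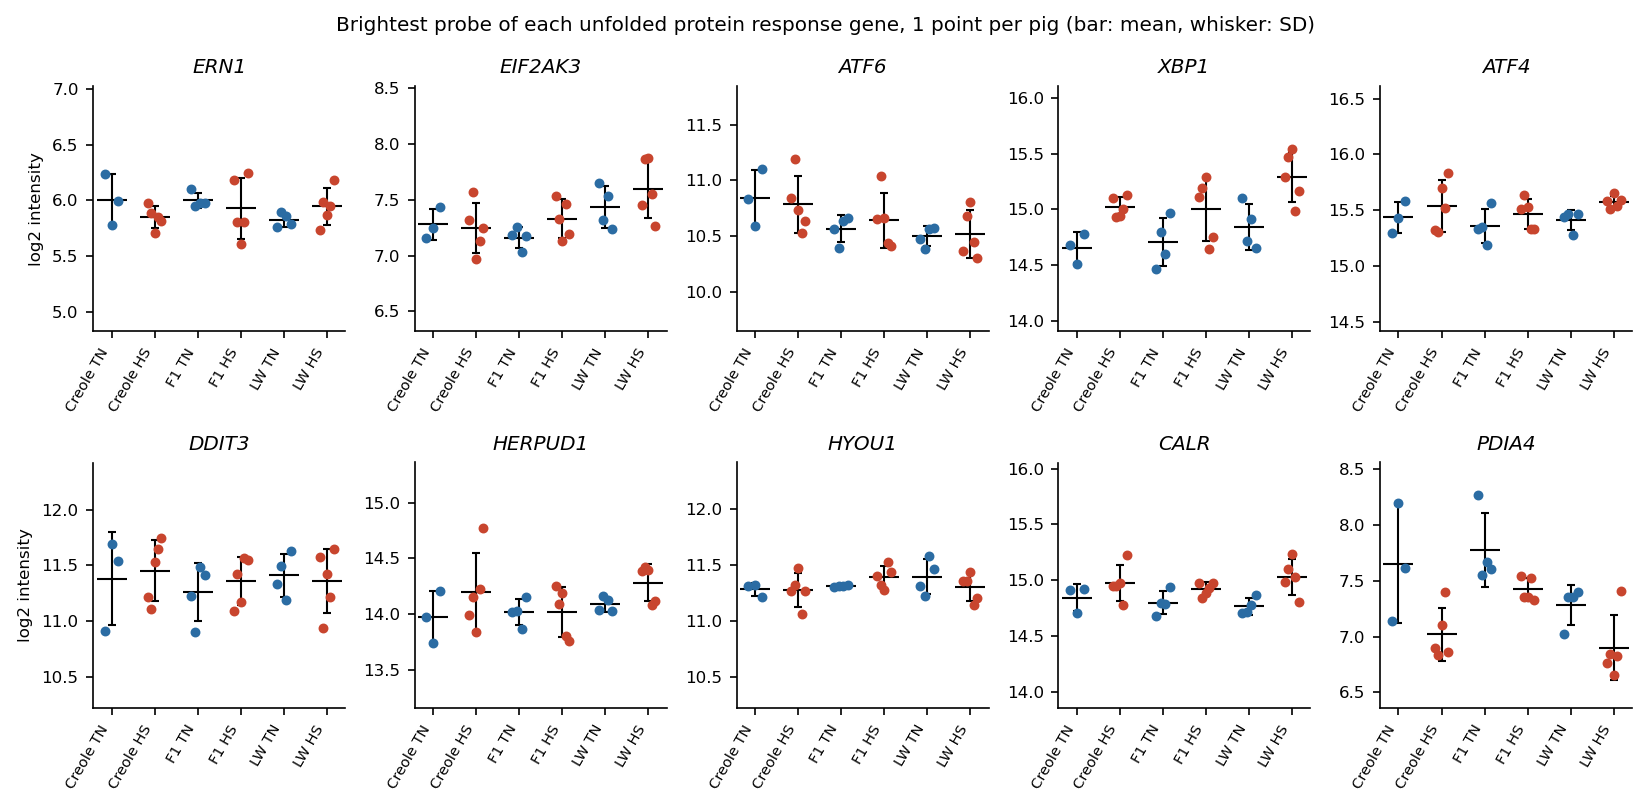
Log2 intensity of the brightest probe of each of the 10 genes (y axis, with the same span in every panel) in the 6 groups of pigs (x axis), with TN in blue and HS in red, 1 point per pig, the mean as a bar and the SD as whiskers. The HS mean of XBP1 is above the TN mean in each breed and that of PDIA4 below it. TN and HS pigs of the same breed overlap in every panel, except for XBP1 in Creole, PDIA4 in F1 and ATF4 in LW, that is 1 of 10 genes per breed against 6.3%, 6.89% and 8.05% of all tested probes.

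None of the 3 sensors passed the test of temperature. ERN1, which encodes the kinase and nuclease IRE1, was measured by a single dim probe. The TN pigs were at 5.94 ± 0.15 (SD, n = 11) and the HS pigs at 5.91 ± 0.18 (SD, n = 15), with a difference of −0.03 (SE 0.07, adjusted p = 0.823). All 5 Creole HS pigs lay below the Creole TN mean and 4 of 5 LW HS pigs lay above the LW TN mean, but the interaction of breed and temperature was not significant for this gene (adjusted p = 0.900). EIF2AK3, which encodes the eIF2 kinase PERK, was at 7.29 ± 0.18 in TN and 7.39 ± 0.26 in HS, with a difference of 0.11 (SE 0.08, adjusted p = 0.394) for the brighter of its 2 probes and of −0.00092 for the other. ATF6, the sensor that is itself a transcription factor precursor, differed by 0.02 (SE 0.08, adjusted p = 0.910), and its 3 probes ranged from −0.08 to 0.02. The sign of this value turned under several alternatives, so that no direction is read from it.

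Among the transcription factors, XBP1 carried the largest rise. XBP1 encodes the factor that is activated by IRE1 and induces genes of secretion and of protein degradation. In Creole pigs its levels were 14.51, 14.68 and 14.78 in TN and 14.93, 14.94, 15.00, 15.10 and 15.13 in HS. Every Creole pig in HS was above every Creole pig in TN. In F1 pigs the levels were 14.47, 14.60, 14.79 and 14.96 in TN and 14.65, 14.75, 15.11, 15.19 and 15.29 in HS, with 3 of 5 HS pigs above all TN pigs. In LW pigs the levels were 14.65, 14.71, 14.91 and 15.10 in TN and 14.98, 15.17, 15.29, 15.47 and 15.54 in HS. The groups overlapped in F1 and LW, through the highest TN pigs and the lowest HS pigs. Over all breeds, XBP1 was 0.37 higher in HS (SE 0.08, adjusted p = 0.0031), which is 1.29-fold, and 14 of 15 HS pigs were above the TN mean of their breed. Within slides, the difference was 0.66, 0.34, 0.46, 0.14 and 0.39 on slides 1 to 5. These slides held 1, 2, 3, 3 and 2 TN pigs and 3, 3, 3, 4 and 2 HS pigs, so that the value of slide 1 rests on the single pig F1 TN 1.

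All 10 probes of XBP1 had higher means in HS, with differences from 0.12 to 0.37, and 5 of them were called. All 10 differences were also above 0 when arrays were scaled to their 75th percentile in place of quantile normalization. The probes are not independent, since all are read from the same RNA and some overlap, such as A_72_P488529 and A_72_P536555, which share 36 bases. Along the mRNA to which 6 probes were assigned, the probe that starts at base 791 differed by 0.14 (adjusted p = 0.269) and the probe at base 842 by 0.22 (adjusted p = 0.060). The probes at bases 1017 and 1041 differed by 0.22 and 0.26 (adjusted p = 0.037 and 0.015). The probes nearest to the 3′ end, at bases 1584 and 1692, differed by 0.37 and 0.33 (adjusted p = 0.0031 and 0.0037). With 75th percentile scaling the same 6 probes, from base 791 to base 1692, differed by 0.13, 0.20, 0.18, 0.19, 0.24 and 0.21, a flatter course. The differences between these values were not tested. The difference of the brightest probe moved to 0.24 with 75th percentile scaling (adjusted p = 0.012), and the mean of the 10 probes differed by 0.24 (adjusted p = 0.013). With a score of red blood cell or of fibroblast and matrix markers in the model, the brightest probe was at 0.21 and 0.23, no longer called (adjusted p = 0.254 and 0.116). The spliced and unspliced forms of XBP1 mRNA were not told apart.

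**Figure D2:**
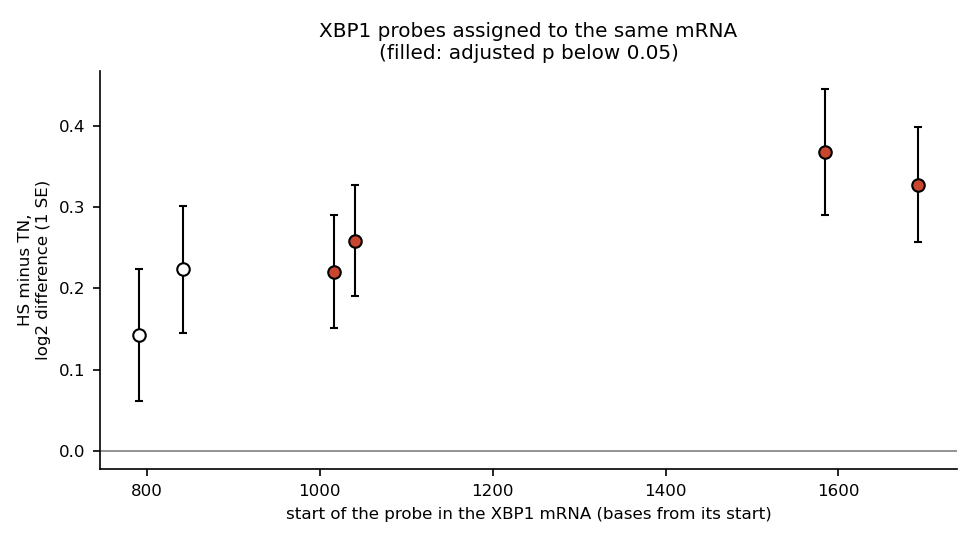
The 6 XBP1 probes assigned to the same mRNA, by their start in bases from the start of that mRNA (x axis). The y axis gives the HS minus TN difference in log2 with 1 SE as whiskers, filled where called. The differences lie between 0.14 at base 791 and 0.37 at base 1584, and 4 of the 6 are called.

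ATF4, the factor whose translation rises when eIF2 is phosphorylated and which induces genes of amino acid supply, was not called. In TN its level ranged from 15.19 to 15.58 with a median of 15.43, and in HS from 15.30 to 15.84 with a median of 15.53. The ranges overlapped over most of their length. The difference was 0.13 (SE 0.06, adjusted p = 0.149), and 11 of 15 HS pigs were above the TN mean of their breed. All 7 ATF4 probes had differences above 0, from 0.02 to 0.13, but the brightest fell to −0.0057 with 75th percentile scaling, so that the direction depends on the scaling. In LW the groups did not overlap, from 15.28 to 15.47 in TN and from 15.51 to 15.65 in HS, whereas the test within LW was not passed (difference 0.16, adjusted p = 0.428). DDIT3, which encodes CHOP, a factor linked to cell death under lasting stress, ranged from 10.90 to 11.69 in TN and from 10.94 to 11.74 in HS. The difference of 0.04 (SE 0.10, adjusted p = 0.84) was smaller than the spread between pigs and turned to −0.02 with 75th percentile scaling. Its other 2 probes, identical in sequence, differed by 0.02 and 0.09.

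Of the 4 target genes, CALR was called higher and PDIA4 lower, and HERPUD1 and HYOU1 were not called. CALR encodes calreticulin, a calcium-binding chaperone of glycoproteins. In Creole pigs its levels were 14.70, 14.91 and 14.92 in TN and 14.78, 14.95, 14.95, 14.98 and 15.22 in HS. In F1 pigs they were 14.68, 14.79, 14.80 and 14.93 in TN and 14.84, 14.88, 14.93, 14.98 and 14.98 in HS. In LW pigs they were 14.71, 14.72, 14.77 and 14.87 in TN and 14.80, 14.98, 15.03, 15.10 and 15.23 in HS. The groups overlapped in each breed, and 14 of 15 HS pigs were above the TN mean of their breed. The difference was 0.17 (SE 0.05, adjusted p = 0.023), or 1.13-fold. This call rests on 1 of 3 probes, the other probes A_72_P402718 and O12127 having differences of 0.04 and 0.07 (adjusted p = 0.727 and 0.716). It was also lost with 75th percentile scaling (0.04, adjusted p = 0.604), when the 3 probes were averaged (0.09, adjusted p = 0.344), and with either marker score in the model (0.14 and 0.08, adjusted p = 0.303 and 0.398). Within slides, the difference for the brightest probe was 0.23, 0.15, 0.32, 0.0098 and 0.28 on slides 1 to 5.

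PDIA4 encodes a protein disulfide isomerase, an enzyme that forms and rearranges disulfide bonds. In Creole pigs the levels of its single probe were 7.14, 7.62 and 8.20 in TN and 6.83, 6.86, 6.90, 7.11 and 7.40 in HS. In F1 pigs they were 7.55, 7.61, 7.67 and 8.27 in TN and 7.33, 7.36, 7.36, 7.53 and 7.55 in HS. In LW pigs they were 7.02, 7.36, 7.36 and 7.40 in TN and 6.66, 6.77, 6.83, 6.85 and 7.41 in HS. All 5 F1 pigs in HS were below every F1 pig in TN, by a narrow margin, and the groups overlapped in the other 2 breeds. The level was 0.45 lower in HS on the log2 scale (fitted difference −0.45, SE 0.11, adjusted p = 0.0078), which is 1.36-fold lower, and in 14 of 15 HS pigs it was below the TN mean of the breed. Within slides, the difference was −0.91, −0.25, −0.61, −0.16 and −0.63 on slides 1 to 5. The only TN pig of slide 1, F1 TN 1, was the one at 8.27, above the other F1 TN pigs. The call was kept with 75th percentile scaling (−0.52, adjusted p = 0.013) and lost with the red blood cell or the fibroblast score in the model (−0.33 and −0.17, adjusted p = 0.244 and 0.279).

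HERPUD1 encodes a membrane protein of the degradation machinery. It ranged from 13.75 to 14.20 in TN and from 13.76 to 14.77 in HS, with a difference of 0.14 (SE 0.08, adjusted p = 0.308). The HS pigs spread further upward, and the ranges overlapped. Its second probe, well above background on 17 arrays, differed by −0.07 (adjusted p = 0.536). HYOU1 encodes a large chaperone of the same compartment. The TN pigs were at 11.33 ± 0.10 (SD, n = 11) and the HS pigs at 11.32 ± 0.13 (SD, n = 15), and they differed by −0.0061 (SE 0.05, adjusted p = 0.954). The SE of this gene was among the smallest of the 10 genes.

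**Figure D3:**
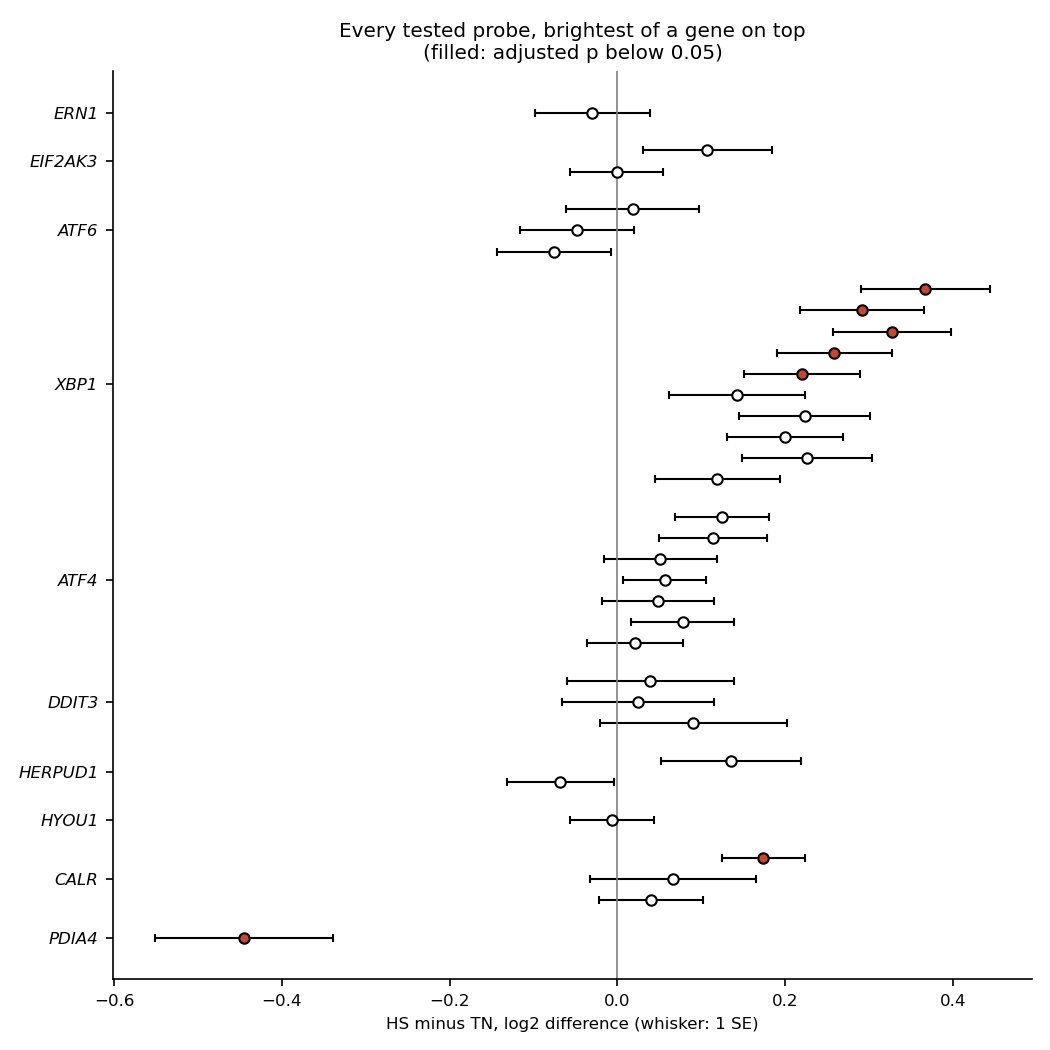
HS minus TN difference in log2 (x axis, whiskers of 1 SE) for each of the 33 tested probes of the 10 genes, grouped by gene with the brightest probe on top and filled where called. All 10 XBP1 probes lie above 0, 1 of 3 CALR probes is filled, and the single PDIA4 probe lies at −0.45.

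Markers of other cell types were examined beside these values, against 12.2% of all probes called. In bulk tissue, a change in the number of cells of a type and a change in RNA per cell cannot be told apart. Of 9 fibroblast and matrix markers, 4 were called higher in HS and 0 lower, with a median difference of 0.31. Their summed level ranged from 18.36 to 19.69 in TN and from 19.11 to 19.94 in HS. Of 5 tested red blood cell markers, 1 was called lower and 0 higher, with a median of −0.39, and their summed level ranged from 12.42 to 12.82 in TN and from 12.19 to 13.00 in HS. Of 8 plasma and B cell markers, cells in which XBP1 is known to be high, 0 were called and the median was 0.01. None of 9 skeletal muscle, 10 macrophage and 4 keratinocyte markers was called, with medians of 0.57, 0.14 and 0.54. The summed level of the muscle markers reached 18.60 in HS and 16.94 in TN, and that of the keratinocyte markers 14.21 and 12.66. Of 7 adipocyte markers 1 was called higher, and of 7 endothelial markers 1 was called lower. When the mean level of the red blood cell markers was added to the model, the difference was 0.21 for XBP1 (adjusted p = 0.254), 0.14 for CALR (adjusted p = 0.303) and −0.33 for PDIA4 (adjusted p = 0.244). With the fibroblast and matrix markers in its place, an alternative chosen after seeing the data, the differences were 0.23 (adjusted p = 0.116), 0.08 (adjusted p = 0.398) and −0.17 (adjusted p = 0.279), so that none of the 3 calls held in either model. The number of calls over all probes fell from 5447 to 373 and to 1553 in these models. The red blood cell score itself went with temperature, with means of 0.19 in TN and −0.14 in HS. It includes dim markers such as ALAS2 (5.96). The fibroblast and matrix score also went with temperature, with means of −0.14 in TN and 0.10 in HS. Both fits could therefore also remove a difference due to temperature, so that the lost calls do not separate cell content from temperature. With the plasma and B cell markers, all 3 calls held. Their score hardly differed with temperature (−0.02 in TN and 0.02 in HS), so that this fit could remove little of any difference. Several of these markers were dim, such as CD79A and MS4A1 (5.70 and 5.72), and DERL3 is also in a pathway list.

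Within breeds, none of the 10 genes was called. In Creole, 0.0716% of all tested probes were called, in F1 0.421% and in LW 1.5%. At an unadjusted p below 0.05 there were 2 genes in Creole (XBP1 and PDIA4), 1 in F1 (XBP1) and 3 in LW (XBP1, CALR and PDIA4), against 11.1%, 16% and 16.7% of all probes at the same threshold. The difference of XBP1 was 0.36 (SE 0.15, adjusted p = 0.349) in Creole, 0.29 (SE 0.13, adjusted p = 0.285) in F1 and 0.45 (SE 0.13, adjusted p = 0.087) in LW. That of PDIA4 was −0.63 (adjusted p = 0.232), −0.35 (adjusted p = 0.350) and −0.38 (adjusted p = 0.290), and it moved to −0.36 in Creole without Creole TN 2 and to −0.19 in F1 without F1 TN 1. That of CALR was 0.13 (adjusted p = 0.634), 0.12 (adjusted p = 0.510) and 0.26 (adjusted p = 0.105), and it was called in LW when the pig LW HS 5 was left out (adjusted p = 0.042). Without the same 2 TN pigs, CALR was at 0.06 in Creole and 0.08 in F1. The interaction of breed and temperature was significant for none of the 10 genes, with adjusted p from 0.900 to 0.985, against 0.00224% of all probes. Before adjustment none of the 10 was below 0.05, against 5.23% of all probes. Of the other tested probes of these 10 genes, 1 was, the XBP1 probe A_72_P592109 (unadjusted p = 0.037, adjusted p = 0.897), with differences of 0.34 in Creole, −0.13 in F1 and 0.25 in LW. No difference in response between breeds was therefore shown for these genes.

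The comparison of LW with Creole, with temperature as a fixed effect, asked whether the breeds differ in the level of the response. Of the 10 genes, 1 was called, against 14.3% of all tested probes, and 3 had an unadjusted p below 0.05 (ATF6, EIF2AK3 and XBP1), against 29% of all probes. ATF6 ranged from 10.53 to 11.19 with a median of 10.78 in Creole and from 10.30 to 10.81 with a median of 10.47 in LW. The ranges overlapped, and the difference was −0.29 (adjusted p = 0.044) for the brightest probe, 0.07 (adjusted p = 0.619) for A_72_P194322 and −0.14 (adjusted p = 0.289) for A_72_P474372. The call was lost in 13 of the 26 fits that left out 1 pig, with adjusted p up to 0.098. It was also lost with slide as a fixed block (−0.28, adjusted p = 0.072) and when the 3 probes were averaged (−0.12, adjusted p = 0.245). EIF2AK3 ranged from 6.97 to 7.57 in Creole and from 7.24 to 7.87 in LW, a difference of 0.27 (adjusted p = 0.051) for the brighter probe and of 0.02 for the other. XBP1 was at 14.88 ± 0.21 (SD, n = 8) in Creole and 15.09 ± 0.31 (SD, n = 9) in LW (difference 0.23, adjusted p = 0.098). For CALR, the breeds differed by −0.00040 for the brightest probe, whereas O12127 was lower in LW (−0.37, adjusted p = 0.043), so that the probes of this gene disagree here too. When F1 was compared with the mean of the parental breeds, 0 of 10 genes were called, against 0.00671% of all probes, and 1 gene had an unadjusted p below 0.05, against 8.69%. This was PDIA4, higher in F1 by 0.40 (SE 0.11, adjusted p = 0.212).

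Other genes of the pathway, from 5 lists, gave no common direction with temperature. These lists too were chosen with earlier results of these data known, so that their shares describe them and do not set them apart. Each listed gene counts by its brightest tested probe, whereas the share of all probes covers bright and dim probes alike. Of 93 listed genes, 75 were tested, and 4 were called higher and 9 lower, a share of 17.3% against 12.2% of all probes. The median difference over the 75 genes was −0.01. HSPA5, which encodes BiP, the main chaperone of the compartment and the partner that holds the sensors inactive, averaged 13.54 ± 0.14 (SD) in the 11 TN pigs and 13.44 ± 0.12 in the 15 HS pigs. Its difference of −0.10 (adjusted p = 0.217) was not called, but with 75th percentile scaling it was −0.20 and called (adjusted p = 0.012).

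Among 20 tested chaperones and folding enzymes, 3 were called higher and 3 lower, which is 30.0% in all against 12.2% of all probes. HSP90B1, which encodes the chaperone GRP94, was 0.21 higher (adjusted p = 0.011), and FKBP2, a prolyl isomerase, 0.13 higher (adjusted p = 0.018). Both calls were lost with 75th percentile scaling (0.10 and 0.01), and that of HSP90B1 also with the mean of its probes (0.13, adjusted p = 0.104). The co-chaperones of BiP DNAJB9 and DNAJB11 were lower, by −0.31 (adjusted p = 0.026) and −0.23 (adjusted p = 0.015), and SDF2L1 and DNAJC3 differed by −0.02 each without a call. Of 17 genes of degradation, 3 were called (17.6%), all lower, namely FAF2 (−0.19, adjusted p = 0.014), DERL1 (−0.20, adjusted p = 0.045) and VCP (−0.15, adjusted p = 0.047), which encodes the ATPase that extracts proteins from the membrane. The calls of DERL1 and VCP were lost with slide as a fixed block (adjusted p = 0.061 and 0.076), and leaving out 1 pig kept them in 11 and 8 of 26 fits. Of 15 genes of translocation and secretion, 1 was called (6.67%, below the share of all probes), SSR2 of the translocon-associated complex (0.14, adjusted p = 0.028), and this was lost with 75th percentile scaling. Of 5 tested sensors, proteases and other membrane factors, the co-chaperone DNAJB12 was called lower (−0.23, adjusted p = 0.0015).

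Of 18 tested genes of the eIF2-ATF4 arm, 0 were called higher and 2 lower, a share of 11.1% against 12.2% of all probes. Their differences ranged from −0.60 to 0.50, with 5 above 0. DDIT4, an inhibitor of mTORC1 that ATF4 and other factors induce, averaged 13.36 ± 0.38 (SD) in the 11 TN pigs and 12.73 ± 0.56 in the 15 HS pigs (difference −0.60, adjusted p = 0.028). ASNS, the asparagine synthetase, was lower by −0.22 (adjusted p = 0.033), a call that was lost with 75th percentile scaling (−0.21, adjusted p = 0.075). PPP1R15A, the eIF2 phosphatase subunit that closes this loop, and ATF3 differed by 0.11 (adjusted p = 0.209) and 0.0068 (adjusted p = 0.982). TRIB3 was not analysed here. Of the 11 pathway genes named here as called between HS and TN, 11 were no longer called with the red blood cell score in the model and 8 with the fibroblast score, and the sizes of their differences moved unequally. In these models DNAJB12 was at −0.21 and −0.25, DNAJB9 at −0.38 and −0.32, and DDIT4 at −0.49 and −0.65. DERL1 was at −0.09 and −0.10 and VCP at −0.09 in both.

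**Figure D4:**
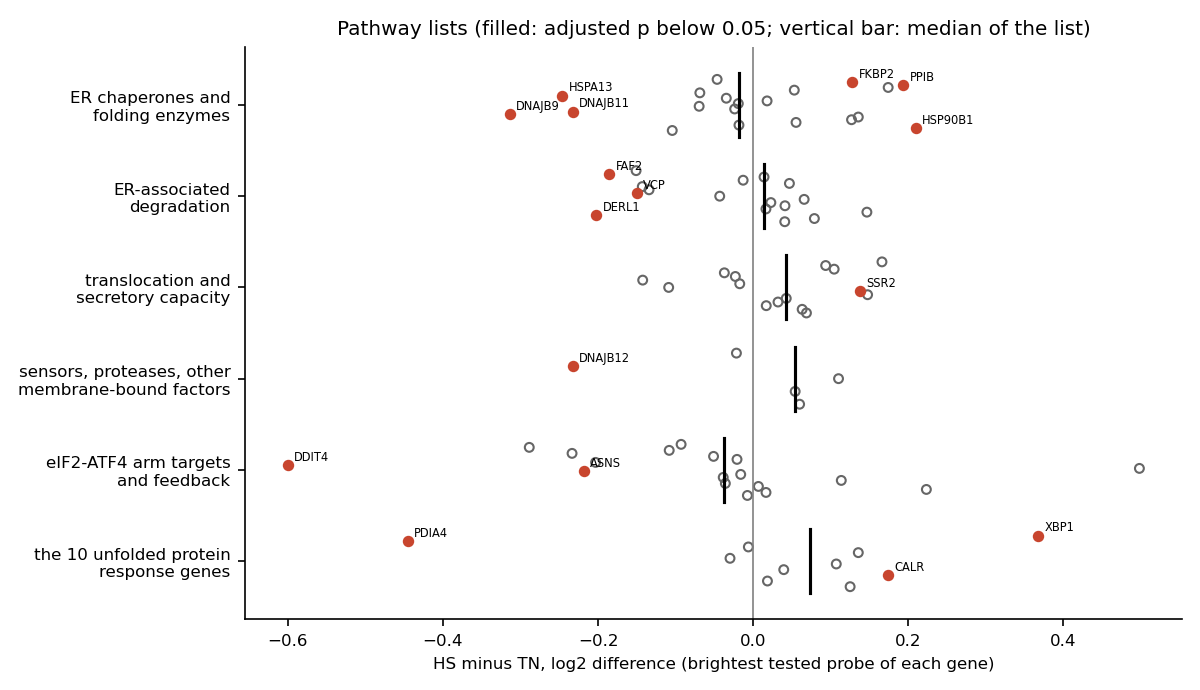
HS minus TN difference in log2 (x axis) of the brightest tested probe of each gene of 5 pathway lists and of the 10 unfolded protein response genes (y axis), filled and named where called, with the median of each list as a vertical bar. Filled points lie on both sides of 0 in the list of chaperones, and below 0 in those of degradation and of the eIF2-ATF4 arm.

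Between LW and Creole, 8 of the 75 genes were called, 4 in each direction, a share of 10.7% against 14.3% of all probes. CREB3 and ATF6B, both membrane-bound transcription factors of the family of ATF6, were higher in LW, by 0.31 (adjusted p = 4.1e-04) and 0.38 (adjusted p = 0.0073). With the mean of all probes of a gene these were 0.15 (adjusted p = 0.039) and 0.24 (adjusted p = 0.010), still called. PHGDH, the first enzyme of serine synthesis, and SSR4 were also higher (0.56 and 0.31), but neither call held with 75th percentile scaling. ASNS (−0.35), SIL1 (−0.30), OS9 (−0.26) and VCP (−0.25) were lower in LW, with adjusted p from 0.0063 to 0.013.

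Whether the genes vary together with HSPA5 among pigs kept alike was asked by subtracting the mean of each of the 6 groups and correlating the residuals over 26 pigs. The 10 correlations were tested by permutation within groups and Benjamini-Hochberg adjusted over the 10 relations. Only CALR passed, with r = 0.54 (permutation p = 0.0030, adjusted 0.030) and rho = 0.59 (permutation p = 0.0034, adjusted 0.034). Without the 2 pigs farthest from the median of HSPA5, r was 0.62, and after removal of slide effects it was 0.37. HYOU1 had r = 0.59 (permutation p = 0.019, adjusted 0.093) and rho = 0.63 (permutation p = 0.011, adjusted 0.054), and r was 0.50 without those pigs and 0.47 after removal of slide effects. HERPUD1 had r = 0.41 (permutation p = 0.032, adjusted 0.107) and rho = 0.35 (permutation p = 0.091, adjusted 0.268), and r fell to 0.18 with 75th percentile scaling. XBP1, which differed most between temperatures in the upward direction, had r = 0.11 (permutation p = 0.632, adjusted 0.743) and rho = 0.09 (permutation p = 0.713, adjusted 0.767), and r turned to −0.24 with that scaling. The other 6 genes had r from −0.19 to 0.37 with adjusted p from 0.277 upward. The highest of these, EIF2AK3, went from 0.37 to 0.57 after removal of slide effects and to 0.13 with 75th percentile scaling, whereas CALR and HYOU1 were at 0.47 and 0.56 with that scaling. Each slide held from 4 to 7 arrays of several groups, too few for values within slides, and values of the same array share its normalization.

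**Figure D5:**
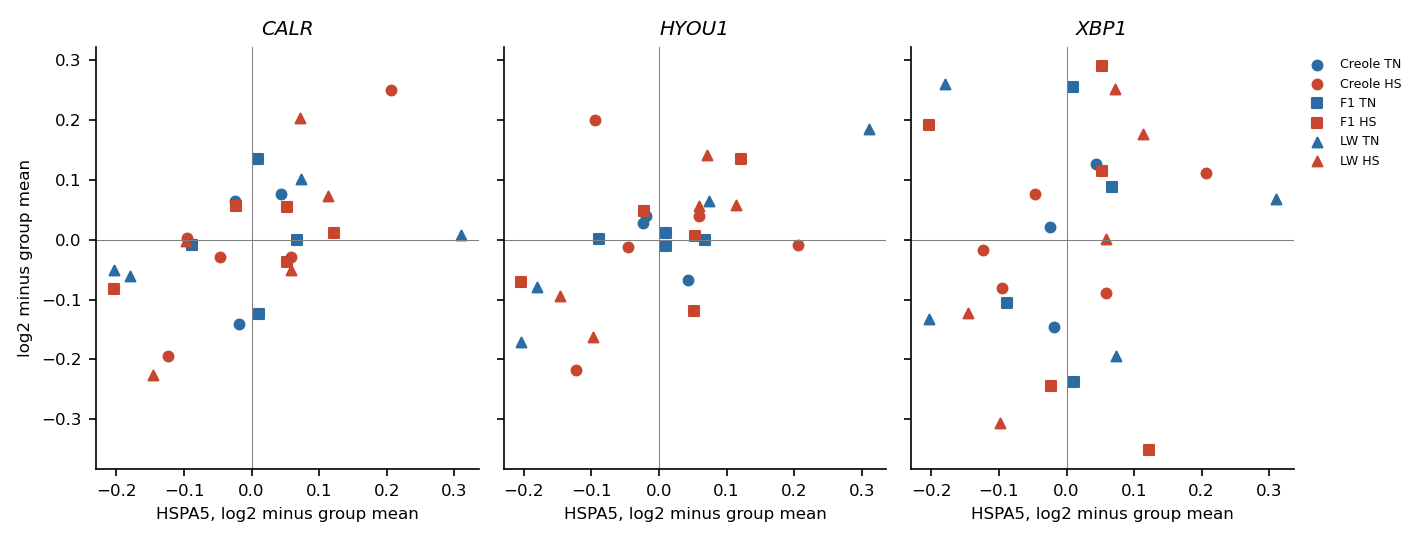
Log2 level minus the group mean of CALR, HYOU1 and XBP1 (y axis) against that of HSPA5 (x axis), 1 point per pig, with TN in blue, HS in red and breeds by marker shape. The relation passed the test for CALR (r = 0.54) and not for HYOU1 (r = 0.59, adjusted p = 0.093) or XBP1 (r = 0.11).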

How the data were processed

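Adipose RNA of 26 pigs was hybridised to one-colour porcine arrays. Median, mean, background and processed spot intensity, not normalized, stand in the deposited scanner files, extracted with Agilent Feature Extraction 10.10.1.1 per the submitters' processing notes. A deposited matrix with the authors' log2 values of quantile-normalized intensities served as an alternative. Median intensities were quantile-normalized, transformed to log2 and averaged per probe with limma 3.58.1 in R 4.3.3 (R package data.table, version 1.17.8). Up to 16 non-uniform spots per array were set to missing. A probe was kept if 8 or more arrays had it well above background. Models were fitted with lmFit and with eBayes using its intensity trend, breed or temperature being a fixed effect, or with 6 group means for values within breeds and the interaction. The random effects of pen, slaughter day and parents in the methods are not in the labels and were left out. Correlations used 100000 permutations within groups. The number of arrays limits the precision. The code was tested on simulated data.

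The members and lists were chosen with earlier results of these data known. Named genes are all members, 9 genes of the pathway fixed by name, and up to 3 called genes with the smallest adjusted p per list in HS minus TN and in LW minus Creole. Symbols came from annotation columns matched to a pig gene table, assembly Sscrofa11.1, without realignment. Alternatives were 75th percentile scaling of the processed signal, normexp background correction with an offset of 50, the series matrix, 2 filters, slide as a block, gene means, array weights, a robust eBayes, no breed term, marker scores as covariates and leaving out each array. Promoter and protein sequences were not used here. Not every probe sequence is reported here.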

Additional observations from a re-analysis of the deposited data

Results flagged for a closer look

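In 4 of 50 combinations of a gene with a group of 4 or 5 pigs, the highest or lowest pig stood apart from the others by Dixon's test, which chance gives in about 1 in 20 groups. Of these, 3 concerned PDIA4. The pig F1 TN 1 was at 8.27, above the next at 7.67, the pig LW TN 1 was at 7.02, below the next at 7.36, and the pig LW HS 5 was at 7.41, above the next at 6.85. For ATF4, the pig LW TN 3 was at 15.28, below the next at 15.44. The difference of PDIA4 between HS and TN stayed between −0.49 and −0.36, and called, when any one pig was left out.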

How the results depend on the processing

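The calls of XBP1 and PDIA4 between HS and TN held in 12 of 14 alternative fits and when any one pig was left out (XBP1 from 0.34 to 0.40, PDIA4 from −0.49 to −0.36). The call of CALR held in 10 of 14 and when any one pig was left out (from 0.15 to 0.19). With the red blood cell or the fibroblast score as a covariate, 0 of 10 genes were called, and the calls over all probes went from 5447 to 373 and 1553. Without a breed term they were 3531, with the same number of members called. Some differences that were not called changed sign. With 75th percentile scaling the HS minus TN difference was −0.0057 for ATF4, −0.027 for ATF6, −0.023 for DDIT3 and, within Creole, −0.0097 for CALR. ATF6 was at −0.00098 with normexp background correction, −0.00098 with slide as a fixed block, −0.035 with gene means, −0.11 with the red blood cell score and −0.092 with the fibroblast score. SDF2L1 was at 0.0035 with slide as a fixed block and 0.015 with the red blood cell score. With the latter, HYOU1 was at 0.0037, ERN1 at 0.076 and ATF3 at −0.019. With the fibroblast score, HERPUD1 was at −0.0078 and EIF2AK3 at −0.029. With gene means, CALR within F1 was at −0.013. Leaving out 1 pig gave ranges from −0.051 to 0.063 for ATF3, −0.016 to 0.055 for ATF6, −0.020 to 0.077 for DDIT3, −0.063 to 0.015 for DNAJC3, −0.055 to 0.0085 for ERN1, −0.020 to 0.018 for HYOU1 and −0.038 to 0.011 for SDF2L1, and from 0 to 1 gene called within LW. Among pathway genes, the call was lost without Creole TN 3 or LW TN 2 for DNAJB9 (adjusted p up to 0.054), F1 TN 1 or LW TN 2 for DDIT4 (up to 0.052), LW TN 3 or 4 for SSR2 (up to 0.055), and F1 TN 1, F1 HS 1 or 2, LW TN 2 or LW HS 2 or 4 for ASNS (up to 0.066). The cause of these changes was not tested.

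Between LW and Creole, 1 of 10 genes was called, against 2 with 75th percentile scaling, with probes well above background on every array, with slide as a random block or with a robust eBayes, the second being EIF2AK3. It was 0 without a filter on dim probes, with slide as a fixed block and with gene means, and from 0 to 1 when 1 pig was left out. ATF6 was no longer called without Creole TN 1 or 3, Creole HS 1, 2 or 3, F1 TN 1, any of the 4 LW TN pigs, or LW HS 1, 4 or 5. EIF2AK3 was called without Creole TN 3, Creole HS 2, LW TN 2 or 4, or LW HS 1 or 5. PHGDH was not called without Creole TN 2, Creole HS 3 or LW HS 2 (up to 0.063). CALR was at 0.0032 with normexp, 0.0022 with array weights and from −0.033 to 0.033 when 1 pig was left out. No paired analysis was possible because TN and HS pigs were different animals and the labels do not give the blocks of littermates. Signal over background limits ERN1, whose single probe is dim, and 2 of 3 HYOU1 probes.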
